A study of Homo sapiens with 4 samples.

Results

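Remote open regions, meaning open chromatin far from every protein-coding gene, were described in human BJ fibroblasts with and without the transcription factor ΔNp63α. A region was taken where a deposited ATAC-seq peak had a −log10 q of at least 10 on chromosomes 1 to 22 or X, and where its summit lay over 200 kb from every transcription start site (TSS) of a protein-coding gene and over 3 kb from any other TSS in GENCODE release 44 (GRCh38). This rule kept 3493 of the 56580 regions of the control list (6.17%) and 3682 of the 62233 regions of the p63 list (5.92%), 7175 of 118813 in all. No measured difference between the groups entered the rule.

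ATAC-seq cuts accessible DNA with the Tn5 transposase, and a peak marks a stretch with more cuts than its surroundings. BJ is an established line of human dermal fibroblasts. Both groups carried the reverse tetracycline transactivator and a doxycycline-inducible KLF4 construct and were induced with doxycycline for 72 h, so KLF4 was expressed in the controls too. Cells named CTR expressed KLF4 alone, and cells named p63 expressed KLF4 together with wild-type ΔNp63α from 1 construct. Each group had 2 replicates, which were separate inductions of the same polyclonal lines, and peaks had been called on both together, which leaves 1 list for each group. No spread between replicates can be taken from 1 list, so no test of the groups was possible. Shares are given with 95% Wilson intervals, differences of shares with 95% Newcombe intervals, and both cover counting error only. The label of the cells was checked against open TSS of marker genes: 11 of 12 fibroblast genes had a peak within 1 kb of a TSS in either list, against 1 of 10 keratinocyte genes in the CTR list (CDH1) and 2 of 10 in the p63 list (CDH1 and ITGB4). None of 4 endothelial genes had one, while 2 of 5 melanocyte genes (MITF and PMEL) did in both lists.

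Enhancers are stretches of DNA that raise transcription from a distance, and some that control developmental genes lie in long stretches without other genes, so-called gene deserts. ΔNp63α is the main p63 isoform of basal keratinocytes, where it binds mostly away from promoters and can open closed chromatin. It reads a paired palindromic site shared with p53. AP-1 (FOS and JUN dimers) and TEAD are factors whose motifs are common in fibroblast enhancers, RUNX factors act in mesenchymal development, and CTCF marks insulators and the anchors of chromatin loops.

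The AP-1 motif was the most frequent of the motifs searched in remote regions (37.2% in the CTR list, 35.6% for p63), while the p63 site was rarer (0.973% and 4.78%) but differed between the groups. Its closest matches are shown because all 8 remote regions of the p63 list with a perfect match had no peak at all in the CTR list, whose own remote regions held 0 perfect matches. The site is 20 bases long, 2 copies of a 10-base unit, and was searched on both strands (it is its own reverse complement) requiring the C and the G of each core and allowing up to 3 mismatches over the other 16 positions. It had to lie within 100 bp of the summit. The p63 list held 8 remote regions with 0 mismatches, 14 with 1, 50 with 2 and 104 with 3. In the CTR list the numbers were 0, 0, 8 and 26. Of those in the p63 list 8, 13, 38 and 71 were p63-only, meaning that no region of the CTR list at the same threshold overlapped them. The lines below give the plus strand of GRCh38 around 7 of the perfect sites, with the site in capitals and 10 bases to each side. Each is named by the protein-coding gene with the nearest TSS, which is not known to be its target.
near ACVR2A, chr2:147382514-147382553: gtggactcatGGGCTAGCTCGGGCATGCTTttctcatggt
near PKDCC, chr2:41722910-41722949: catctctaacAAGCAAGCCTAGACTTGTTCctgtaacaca
near ADRA1D, chr20:4451659-4451698: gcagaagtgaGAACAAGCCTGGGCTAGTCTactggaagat
near GBE1, chr3:82100608-82100647: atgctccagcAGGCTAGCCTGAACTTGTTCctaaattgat
near NDFIP2, chr13:79792885-79792924: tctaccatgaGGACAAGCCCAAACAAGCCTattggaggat
near ATP2B1, chr12:90234627-90234666: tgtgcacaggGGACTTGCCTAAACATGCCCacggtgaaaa
near NUP35, chr2:183592443-183592482: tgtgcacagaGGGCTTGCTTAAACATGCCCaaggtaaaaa

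The regions that carried these sites were of moderate size. The region near ACVR2A, the gene of an activin receptor, lay 462 kb from its TSS and was enriched 16-fold over local background, with a −log10 q of 39.8. Those near PKDCC, a secreted kinase gene, and ADRA1D, an adrenergic receptor gene, had −log10 q values of 33.1 and 32.5. The region near GBE1, a glycogen branching enzyme gene, reached 28.9 inside the noncoding gene LINC02008. That near NDFIP2 reached 23, that near ST3GAL1 17.1, that near ATP2B1 14.2 and that near NUP35 13, the last with a pileup of 17 reads. The 8 regions thus lay on both sides of 19.8, the median −log10 q of remote p63 regions, and none had any CTR peak under it.

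The sites near ATP2B1 on chromosome 12 and near NUP35 on chromosome 2 were alike beyond the site itself. Their printed stretches shared 35 of 40 bases, and the next most alike of the 36 pairs among 9 printed sites shared 25. This pair was picked out after the sequences were seen. The sites below had 1 mismatch each, and are the 2 of the 14 such regions with the highest −log10 q.
near ANO3, chr11:25970910-25970949: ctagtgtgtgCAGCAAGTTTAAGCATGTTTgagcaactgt
near LDB2, chr4:17163532-17163571: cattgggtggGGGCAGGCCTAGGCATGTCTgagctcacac
The region near ANO3, an anoctamin gene, was absent from the CTR list and was enriched 17.4-fold, with a −log10 q of 42.3. The region near LDB2, a cofactor gene of LIM-domain factors, was shared: its −log10 q was 34.8 in the p63 list and 18.1 in the CTR list, with fold enrichments of 14.7 and 8.95.

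Most remote regions were open in both groups. In the CTR list 2627 of 3493 remote regions (75.2%) overlapped a region of the p63 list, and in the p63 list 2628 of 3682 (71.4%) overlapped one of the CTR list. The CTR-only regions numbered 866, or 24.8% (23.4 to 26.3), where 16.5% of all regions of that list were CTR-only. The p63-only regions numbered 1054, or 28.6% (27.2 to 30.1), where 23.9% of all regions of that list were p63-only. Remote regions were therefore more often seen in 1 list than the regions of the lists as a whole, which include the promoters. Which list had the larger share depended on list size: with equal numbers of top-ranked peaks in both lists, 29.5% of remote CTR regions were CTR-only and 25.6% of remote p63 regions were p63-only, so the order turned.

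The list-only regions of the p63 group were more often without any trace in the other list. Of the 1054 p63-only remote regions, 536 overlapped no deposited CTR peak at any threshold and 518 overlapped a weaker one. Of the 866 CTR-only remote regions, 178 overlapped no p63 peak and 688 overlapped a weaker one. As shares of all remote regions of their list, those absent from the other list came to 14.6% (13.5 to 15.7) for p63 and 5.10% (4.41 to 5.88) for CTR, beside 12.0% and 3.28% over all regions of the lists. Absent p63 regions also reached further: their −log10 q had a median of 14.6 and a highest value of 68.5, while absent CTR regions had a median of 11.5 and a highest value of 24.6.

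Of the 5 strongest absent p63 regions, 4 had no p63 site of 3 mismatches or fewer. Most absent regions had none: 18.8% of all 536 absent remote p63 regions held a site. The strongest lay within BABAM2, a DNA repair subunit gene, at chr2:28172408-28172877, 220 kb from the TSS of FOSL2, which encodes an AP-1 subunit. It had a pileup of 71 reads and was enriched 18.7-fold with a −log10 q of 68.5, and its best match to the p63 site had 5 mismatches. The next were at chr9:64920151-64920545 near FOXD4L5 (66.3), at chr3:21117389-21117875 near ZNF385D (59.8) and at chr14:86604567-86604921 near FLRT2 (50.9). The region near FOXD4L5 lies in a block of the assembly with a gap. The AP-1 motif, TGACTCA on either strand, lay in the region near FLRT2, which encodes a cell-surface adhesion and guidance protein. That summit is shown with the AP-1 motif in capitals, beside the strongest absent CTR region, near C4orf33, which held the same motif.
near FLRT2, p63 list, chr14:86604646-86604746: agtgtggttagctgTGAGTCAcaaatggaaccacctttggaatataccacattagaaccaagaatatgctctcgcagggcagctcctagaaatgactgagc
near C4orf33, CTR list, chr4:130077410-130077510: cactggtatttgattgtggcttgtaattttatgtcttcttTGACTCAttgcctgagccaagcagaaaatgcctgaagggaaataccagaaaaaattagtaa

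The fifth of the strongest absent p63 regions, near TMEM65 at chr8:124104880-124105422, reached 46.2 and had both a p63 site with 3 mismatches and an AP-1 motif. Among p63-only regions over a weaker CTR peak, the differences were large at the top. The region at chr5:61866824-61867332, 439 kb from KIF2A, a kinesin gene, had 89 reads in the p63 list and 14 in the CTR list, with −log10 q values of 81.7 and 9.25. The region at chr8:122552598-122553112 near ZHX2 had 64 and 11 reads, and that at chr3:59300571-59301256 near CFAP20DC 59 and 9. The region at chr2:217573522-217574238, in the noncoding gene DIRC3 and nearest to TNS1, which encodes a focal adhesion protein, had 60 and 10. That at chr2:7857834-7858242, 821 kb from ID2, an inhibitor of bHLH factors, had 53 and 12. None of these 5 held a p63 site, where 5.60% of all 518 remote regions of this class did, and 3.96% of the class over all regions. Their CTR peaks had at most 14 reads. The regions were picked by their −log10 q in the p63 list, and the class requires a CTR peak below the threshold, so large differences follow from the choice. The absent CTR regions were smaller: the 5 highest held 26 or 27 reads each, and lay nearest to C4orf33, MMS22L, DDHD1, FRG1 and CDC73.

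Sites of p63 were concentrated in the p63-only regions. Of 1054 p63-only remote regions 130, or 12.3% (10.5 to 14.5), held a p63 site at the summit, against 46 of 2628 shared ones (1.75%) and 2 of 866 CTR-only ones (0.231%). The share over all regions was 3.78% in the p63 list and 0.933% in the CTR list, and windows of the same length 2 kb away from the p63-only summits held a site in 0.712%. Regions absent from the CTR list had a site in 18.8% of 536 cases (15.8 to 22.4), and those over a weaker CTR peak in 29 of 518 (5.60%, 3.93 to 7.92). These shares were not particular to remote regions. Over all regions of the p63 list a site was in 11.4% of p63-only ones, 18.8% of absent ones and 3.96% of those over a weaker peak. None of the 178 absent remote CTR regions had a p63 site. A count of 0 allows a share of up to 1.69% if 3 counts are taken as its limit, and the upper Wilson limit was 2.11%.

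The sites also lay at the summits. Within 50 bp of the summit of p63-only remote regions there were 920 sites per kb per 1000 regions, against 49 at 200 to 500 bp, a ratio of 18.8. The ratio was 2.48 in shared remote regions and 0.300 in CTR-only ones, and 13.2 in p63-only regions nearer to genes. The CTR-only ratio rests on 1 site within 50 bp of the summit, too few to show that sites avoid it. The AP-1 motif peaked at the summits of all 3 classes, with ratios of 11.4 in p63-only, 11.9 in shared and 9.02 in CTR-only remote regions.

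**Figure D1:**
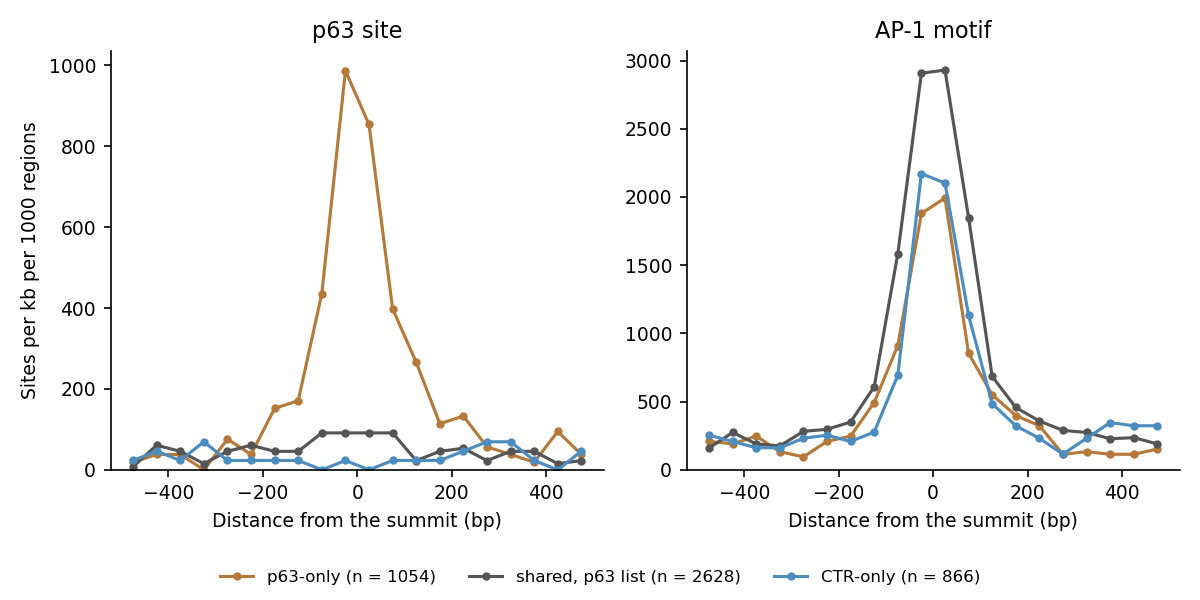
Density of p63 sites (left) and AP-1 motifs (right) per kb per 1000 remote regions, by distance from the summit in bp, for p63-only, shared (p63 list) and CTR-only regions. Points are 50-bp bins without error bars. Within 50 bp of the summit the p63 site reached 920 in p63-only and 91.3 in shared regions, while AP-1 peaked in all 3 classes.

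Remote regions with a close match to the site were more often p63-only than those with a poor match or none, though not at every step. The p63-only share was 8 of 8 at 0 mismatches, 92.9% at 1, 76.0% at 2, 68.3% at 3, 68.7% at 4, 110 of 220 at 5 and 42.2% at 6. It was 24.5% at 7 or more and 19.9% (18.3 to 21.7) among the 2120 remote regions with no pair of cores at the right spacing. In regions nearer to genes the same shares ran from 82.8% at 0 mismatches to 20.9%. Of the 58 nearer regions at 0 mismatches, 43 had no deposited CTR peak, against 8 of 8 remote ones. The p63-only share of these 8 had an interval of 67.6 to 100. The intervals of remote and nearer regions overlapped at every step. They came closest to parting at 6 mismatches, at 42.2% (36.1 to 48.7) and 35.0% (33.3 to 36.8). No interval of the difference was taken at these steps. A difference can exceed counting error although the 2 intervals overlap, so equal shares at every step are not shown.

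**Figure D2:**
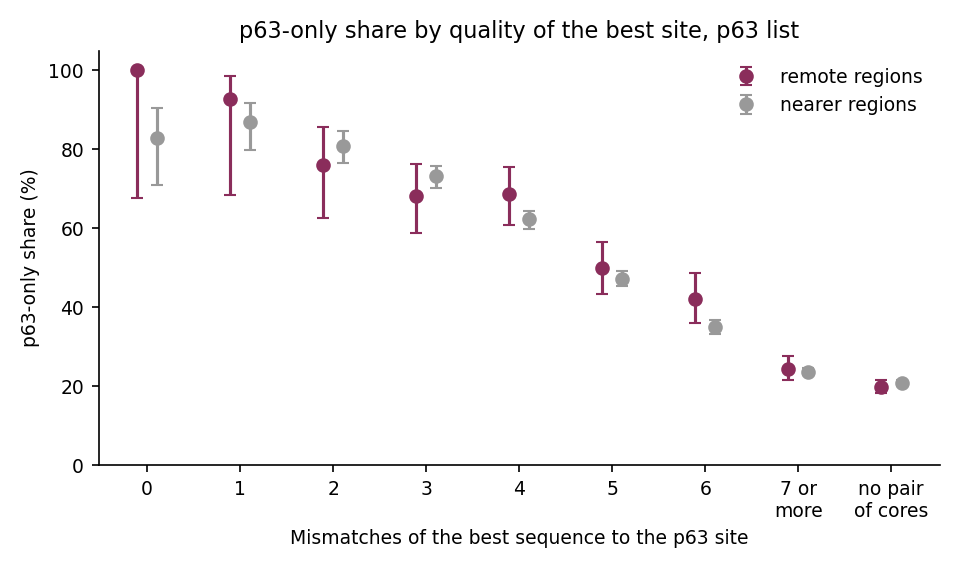
Share of p63-list regions that were p63-only (%), by the number of mismatches of the best sequence within 100 bp of the summit to the p63 site, for remote and nearer regions. Bars are 95% Wilson intervals. The remote share fell from 100% at 0 mismatches to 19.9% where no pair of cores was found.

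Among shared regions the site was unevenly spread over those that ranked higher and lower in the p63 list. Every region was ranked by −log10 q within its own list, as a percentile of all regions at the threshold. The lists differ in length and content, so a change in rank is not a change in openness. Of 2628 shared regions, 263 stood 25 percentile points or more higher in the p63 list and 276 stood 25 points or more lower. A p63 site lay in 20 of the 263 (7.60%, 4.98 to 11.5) and in 0 of the 276, with an upper Wilson limit of 1.37%. Among the 2089 in between it lay in 26 (1.24%). Shared regions nearer to genes had a like pattern, with a site in 5.55% (4.71 to 6.53) of those higher, 0.339% of those lower and 1.10% in between. The AP-1 motif was in 37.3%, 31.2% and 40.6% of the 3 remote groups, higher, lower and in between.

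Among remote regions with a p63 site, an AP-1 motif was less frequent in p63-only than in shared ones. These numbered 130 and 46, and no interval of the difference was taken. Of p63-only remote regions with a site 16.2% also had an AP-1 motif, against 27.7% of those without, and in absent regions the shares were 13.9% and 23.7%. In shared remote regions they were 41.3% and 39.2%. The p63-only regions with a site were slightly higher than those without, with a median fold enrichment of 9.33 against 8.46 and a median −log10 q of 17.6 against 14.1.

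Distance from genes was then set against these measures. Nearer regions, the comparison set, were those over 3 kb from every TSS and within 200 kb of a protein-coding one, 30236 (CTR) and 34053 (p63) in number. The p63-only share was 28.6% in remote and 29.3% in nearer regions, a difference of −0.640 percentage points (−2.16 to 0.917). A p63 site was in 12.3% of p63-only remote and 11.6% of p63-only nearer regions, a difference of 0.694 points (−1.26 to 2.90). Neither difference exceeded its counting error. The remote share of p63-only regions was above the nearer one on 8 chromosomes and below it on 14, of the 22 with at least 20 remote regions.

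The CTR-only share did differ by distance. It was 24.8% in remote and 20.4% in nearer regions, a difference of 4.42 points (2.94 to 5.95), and was higher in remote regions on 17 of 22 chromosomes. The remote share was the higher one at −log10 q of 10 to 15 (53.8% and 46.7%) and of 15 to 25 (19.0% and 16%). At 25 and over the shares were 1.10% and 1.02%, a gap within counting error. Regions over a weaker p63 peak were 19.7% of remote and 16.2% of nearer CTR regions, and those absent from the p63 list 5.10% and 4.21%.

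By distance bin, the p63-only share was 29.8% at 200 to 500 kb, 25.2% at 500 to 1000 kb and 25.9% beyond. The CTR-only share was 24.5%, 24.7% and 28.0% in the same 3 bins. Over everything beyond 500 kb the p63-only share was 25.4%, and it differed from that of all distal regions within 500 kb, those at 200 to 500 kb included, by −3.93 points (−6.58 to −1.09). Of the p63-only regions in the 3 bins, 12.3%, 11.9% and 14% had a p63 site. The last share rests on 57 regions, and without blocks that hold an assembly gap it was 21.4% (10.2 to 39.5) of 28.

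**Figure D3:**
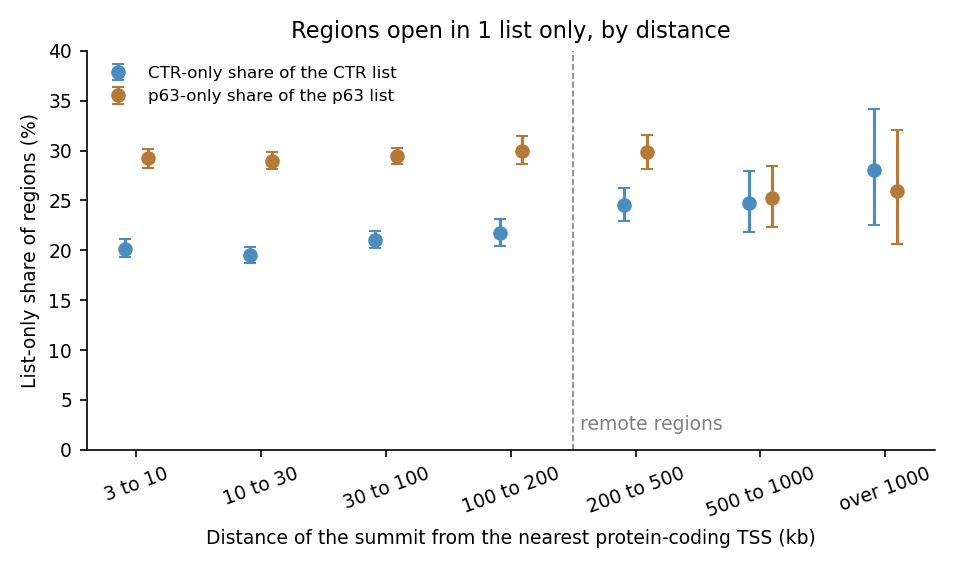
Share of regions found in 1 list only (%), by distance of the summit from the nearest protein-coding TSS in kb, for the CTR list (blue) and the p63 list (brown), with 95% Wilson intervals. The dashed line marks 200 kb. The CTR-only share was 20.1% at 3 to 10 kb and 24.5% at 200 to 500 kb, and the p63-only share 29.2% and 29.8%.

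The motif content of shared remote regions differed from that of nearer ones. AP-1 was in 39.3% of shared remote regions of the p63 list and 34.7% of nearer ones (difference 4.56 points, 2.62 to 6.54) and in 40.3% and 35.5% in the CTR list. CTCF, searched by its 13-base core with at most 1 mismatch, was in 4.30% and 10.5% (−6.20 points, −7.01 to −5.27) in the p63 list and in 4.38% and 10.9% in the CTR list. In the p63 list AP-1 was higher in remote regions on 16 of the 21 chromosomes with at least 20 shared remote regions, and CTCF was lower on 20 of them.

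Base composition also differed with distance. The median GC content of the 201 bp at the summit was 43.3% and 44.5% in remote CTR and p63 regions and 46.8% and 47.8% in nearer ones. With nearer regions weighted to the GC content of the remote ones, the AP-1 difference was 3.36 points in the p63 list and 3.69 in the CTR list, and the CTCF difference −3.64 and −3.78. The KLF motif (GGGCGTGGC, GGGCGGGGC, GGGTGTGGC or GGGTGGGGC on either strand), the type of site KLF4 binds, was in 1.45% of shared remote and 3.41% of nearer regions of the p63 list, a difference of −1.97 points that shrank to −0.789 at equal GC content. RUNX (TGTGGTT on either strand) was in 8.79% and 7.88%, within counting error. Without blocks that hold an assembly gap the RUNX difference was 1.39 points (0.251 to 2.64) in the p63 list, above counting error. In the CTR list it was then 0.694 points (−0.416 to 1.92), within counting error. At equal GC content, with all blocks kept, the RUNX difference was −0.0554 points in the p63 list and −0.510 in the CTR list.

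**Figure D4:**
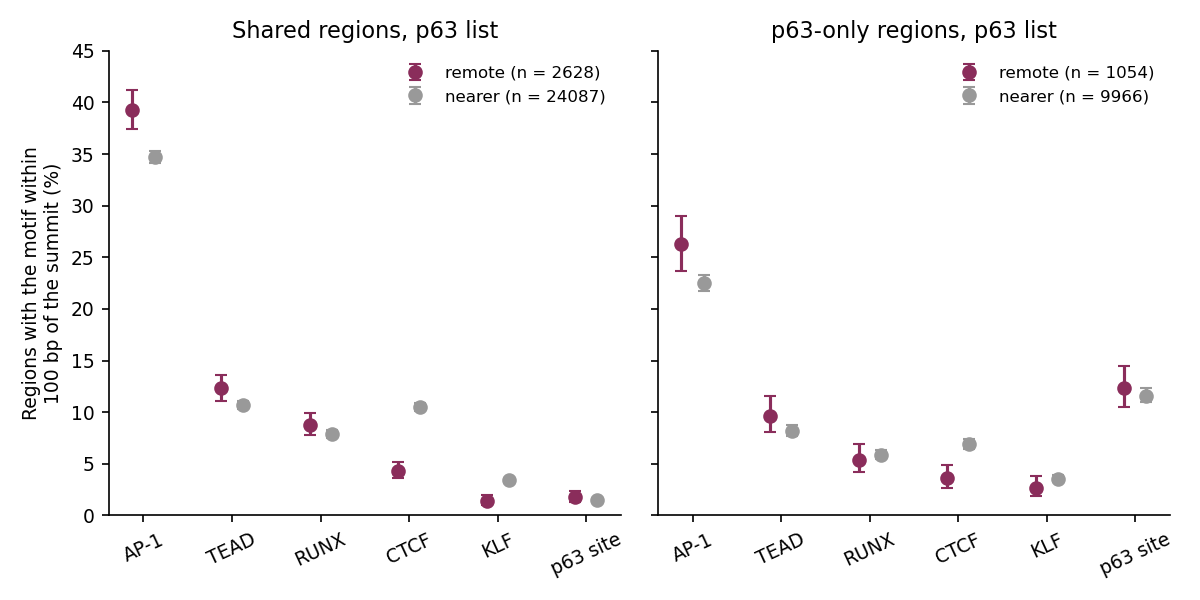
Share of p63-list regions with each motif within 100 bp of the summit (%), for shared (left) and p63-only (right) regions, remote and nearer, with 95% Wilson intervals. In shared regions AP-1 was in 39.3% of remote and 34.7% of nearer regions and CTCF in 4.30% and 10.5%. The p63 site was in 12.3% and 11.6% of p63-only regions.

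Among remote regions the CTCF motif was commonest in CTR regions absent from the p63 list. It was in 20 of 178 absent CTR regions (11.2%, 7.39 to 16.7), against 4.38% of shared ones, and in 21.1% of absent CTR regions nearer to genes. In absent p63 regions it was in 2.61% of remote and 4.80% of nearer ones. The region near DDHD1, among the 5 strongest absent CTR regions, is shown with its CTCF match in capitals because it is an example of this class. It had 26 reads and was enriched 12.4-fold.
near DDHD1, CTR list, chr14:53539662-53539762: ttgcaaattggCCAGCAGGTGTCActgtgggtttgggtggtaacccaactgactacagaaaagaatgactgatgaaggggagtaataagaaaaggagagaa

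TEAD (ACATTCCA, ACATTCCT, GCATTCCA or GCATTCCT on either strand) was in 14.7% of CTR-only remote regions and 11.3% of nearer ones, a difference of 3.32 points (0.971 to 5.94). These words overlap the GGAAT repeat of centromere-near satellite DNA, so the count was also made without blocks that hold an assembly gap, as an alternative added after the data were seen: it was then 14.1%, a difference of 2.73 points (0.356 to 5.40). In shared regions the TEAD difference of 1.63 points in the p63 list became 0.846 (−0.421 to 2.22) without those blocks, and it was then within counting error.

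The strongest remote regions of all lay in blocks that hold assembly gaps. Their distance from the gaps was not measured. The 5 shared regions of highest −log10 q in the p63 list, 200 to 418, were on chromosomes 3, 5 and 10 in gene-free blocks that hold a run of at least 10 kb of unknown bases. They were about as high in the CTR list, at 215 to 402. Such blocks held 224 CTR and 227 p63 remote regions (6.41% and 6.17%), of which 66 and 64 had 8 or more copies of GGAAT in 201 bp. All regions with that repeat were in such blocks. The summit on chromosome 10 shows the repeat.
near ZNF33B, chr10:41859889-41859989: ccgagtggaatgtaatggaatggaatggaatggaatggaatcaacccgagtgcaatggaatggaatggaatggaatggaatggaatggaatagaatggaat
The median local background in gap blocks was 2.82 reads (CTR) and 2.68 (p63), against 1.67 and 1.53 elsewhere, and its part in these peaks was not tested. Without these blocks 24.8% of remote CTR regions were CTR-only, 28.8% of remote p63 regions were p63-only, and 12.9% of p63-only regions had a p63 site.

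Outside these blocks the strongest shared remote regions were unlike each other. These were picked after the values were seen. The highest, at chr7:25862207-25862868 and 290 kb from NFE2L3, had 182 reads in the p63 list and 172 in the CTR list and a GC content of 67.7%. The region at chr6:4358448-4359331 near ECI2 had 178 and 139 reads, and that at chr1:55428896-55429726 near USP24 had 157 and 120. The region at chr6:48826961-48827779, 636 kb from MMUT, had 144 and 122. The region at chr3:29065289-29065806 in RBMS3, an RNA-binding protein gene, had 116 and 110. All 5 had more reads in the p63 list, but total reads per list are not known here, and the region in RBMS3 had a fold enrichment of 21.9 (p63) against 23.2 (CTR).

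The remote regions covered the gene-poor genome thinly. They stood at 5.27 per Mb in the CTR list and 5.56 per Mb in the p63 list over 663 Mb of sequence that satisfies the rule (22.8% of the sequence), against 17.4 and 19.6 per Mb nearer to genes. In the p63 list density ran from 0.924 per Mb on chromosome 19 and 1.54 on chromosome X to 8.15 on chromosome 12 and 8.19 on chromosome 2. The median distance from a protein-coding TSS was 343 kb (CTR) and 337 kb (p63). At the edge of the rule, the nearest remote regions lay at 200007 and 200009 bp and the farthest left out at 199989 and 199912 bp.

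Few remote regions were inside protein-coding genes. In the p63 list 7.98% lay within the body of a protein-coding gene, 38.2% in a noncoding gene and 54.5% in no gene, and 57 of 3682 lay in any exon. The 5 noncoding genes that held most remote regions were all lncRNA genes: MIR3681HG on chromosome 2 (21 CTR and 19 p63 regions), CCDC26 on chromosome 8 (18 and 16), ENSG00000234810 on chromosome 1 (16 and 16), ENSG00000259345 on chromosome 15 (16 and 16) and ENSG00000228714 on chromosome 9 (15 and 16). DIRC3 held 12 CTR and 17 p63 regions, 6 of them p63-only, and was added after its values were seen.

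Remote regions were grouped into clusters by a distance of 20 kb. Regions of both lists merged into 4545 places, 2621 of them with both lists, and 55.5% of the places had another within 20 kb. These formed 900 clusters, and the largest had 24 places. Of 1116 gene-free blocks, 660 held a remote region, and 112 blocks held 50% of them. Blocks differ in length, and these values were not compared with nearer regions or with an even spread. The p63 list had more regions than the CTR list in 271 blocks, fewer in 202 and as many in 187.

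The block with most regions lay between the start of chromosome 21 and TPTE (42 CTR and 50 p63) and holds assembly gaps. Next came the desert from KLF4 to ACTL7B at chr9:107690483-108655985 (36 and 40), that from CITED2 to NMBR at chr6:139574649-141875921 (37 and 34), that from MYC to GSDMC at chr8:127939074-129552756 (34 and 35) and that from TMEM132B to TMEM132C at chr12:125822497-128067169 (32 and 37). KLF4 and MYC encode transcription factors, and CITED2 a coactivator-binding protein. Per Mb the KLF4 desert was the densest of these, at 39.4 regions per list. It held 6 CTR-only regions of 36 and 10 p63-only regions of 40, where 24.8% and 28.6% of all remote regions were list-only. Of the 10, 1 had a p63 site.

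By count, the block with most p63-only regions was the chromosome 21 block, with 14 of its 50 p63 regions. Of 4 blocks with 10 each, the first in chromosome order were that from TNP1 to TNS1 at chr2:217060065-217610303 and that from CD83 to JARID2 at chr6:14317773-15046068. A block with more regions can hold more p63-only ones, and 28.6% of all remote p63 regions were p63-only. The block from TNP1 to TNS1 had 15 CTR and 24 p63 regions, with 1 CTR-only region. The p63-only ones included 5 absent from the CTR list and 2 with a p63 site. The block from CD83 to JARID2 had 17 and 26 regions with 1 CTR-only, 2 absent p63 regions and no p63 site among the p63-only ones. JARID2 encodes a Polycomb cofactor.

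**Figure D5:**
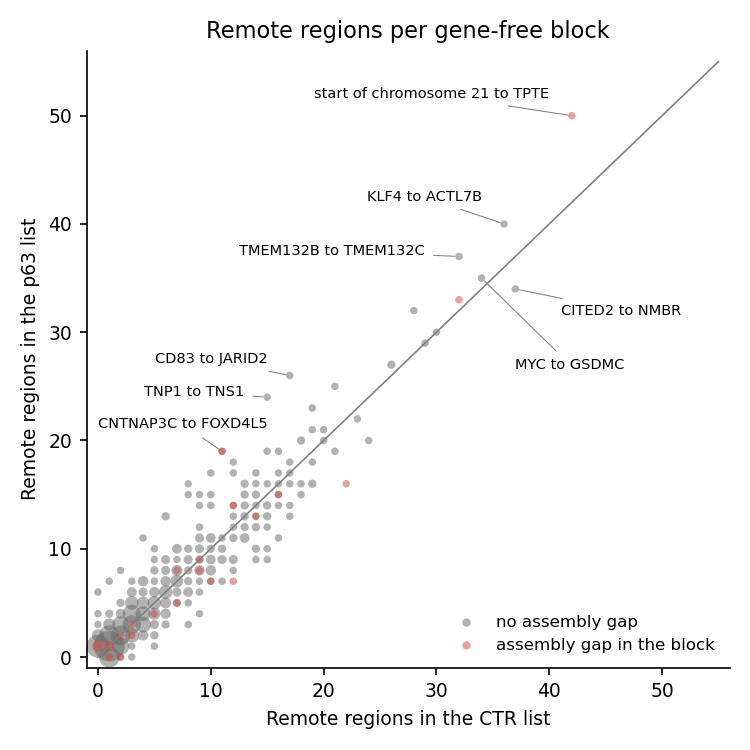
Number of remote regions per gene-free block in the CTR list (x axis) and the p63 list (y axis), for the 660 blocks with at least 1. Larger points stand for more blocks, red points hold an assembly gap, and the line marks equal numbers. The block from TNP1 to TNS1 had 15 and 24 regions and that from CITED2 to NMBR 37 and 34.

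The nearest protein-coding genes were counted against 4 gene lists. Among remote regions 6.18% (CTR) and 5.89% (p63) were nearest to 1 of 109 developmental transcription factor genes, against 1.58% and 1.59% of nearer regions. For 93 neuronal adhesion and synapse genes the shares were 6.10% and 5.70% against 1.19% and 1.09%, and for 91 fibroblast and matrix genes 4.58% and 4.64% against 1.69% and 1.56%. For the keratinocyte genes, 60 of 61 found, they were 0.716% and 0.598% against 0.433% and 0.546%. The 3 larger differences are between regions at different distances, and genes flanked by deserts are the nearest gene to more of the sequence. That share was not compared.

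Within the lists, CTR and p63 counts were close for most genes. Around CDH11, a mesenchymal cadherin gene, there were 20 CTR and 23 p63 remote regions, and around the cadherin gene CDH2 14 and 16. Around ZEB2, a repressor of epithelial genes, there were 15 and 16, 3 of them CTR-only and 4 p63-only. SOX9, a factor of cartilage and hair follicle, had 15 and 12, and the epidermal regulator gene TFAP2A had 17 and 14, 5 CTR-only and 2 p63-only. TFAP2A, KLF5 and TFAP2C are on both the developmental and the keratinocyte list. Of the keratinocyte genes only these and DSC3 were nearest to a remote region. TFAP2A alone had 17 of the 25 CTR and 14 of the 22 p63 regions of that list. IGFBP3, which encodes an insulin-like growth factor binding protein, had 17 and 22, with 7 regions absent from the CTR list. KLF5, another epidermal regulator, had 5 and 4, and DSC3, a desmosomal cadherin gene, had 2 and 2.

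Sites were also counted in the p63-only regions nearest to a listed gene. A p63 site was in 8 of 56 for developmental factors and 4 of 46 for fibroblast and matrix genes. For neuronal genes it was in 2 of 52 and for keratinocyte genes in 0 of 4. Over all p63-only remote regions it was in 130 of 1054 (12.3%). COL11A1, a fibrillar collagen gene, had 2 of the 4 for fibroblast and matrix genes and is shown for that reason, picked after the values were seen. It had no remote CTR region and 3 p63 regions, all absent from the CTR list and 349 to 413 kb from its TSS. Their −log10 q values were 30.3, 16.6 and 13, and the 2 higher ones held a site with 3 and 2 mismatches.
near COL11A1, chr1:102466644-102466683: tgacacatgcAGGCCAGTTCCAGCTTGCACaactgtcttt
near COL11A1, chr1:102472792-102472831: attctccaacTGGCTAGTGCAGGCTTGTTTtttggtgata

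The regions farthest from any protein-coding gene were on chromosome 21, 5453 to 5481 kb from TPTE, in a block that holds assembly gaps. Of the 3 in the p63 list, the farthest was at chr21:5040008-5040412, absent from the CTR list, and had a site with 3 mismatches. Outside the gap blocks, and picked after the values were seen, the farthest in either list was at chr14:83520877-83521319, 1987 kb from SEL1L, with 30 reads in the p63 list and 19 in the CTR list. On chromosome 18, within the noncoding gene MIR924HG, a p63 region 1890 kb from CELF4 was absent from the CTR list and had a site with 3 mismatches.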

How the data were processed

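ATAC-seq libraries of 4 samples, 2 per group, were summarised by the authors as 1 MACS2 peak list per group, called from both replicates after alignment to hg38 with Bowtie2 2.3.4.3. The deposited columns are a score, the fold enrichment over local background, −log10 p, −log10 q and the summit. They hold no per-replicate values, and total reads are not given in the sources used here. The lists held 103700 (CTR) and 112294 (p63) peaks, of which 2837 and 3086 on other sequences were left out. Pileups were solved from fold enrichment and p (lowest 15 reads at the threshold) and could not be solved for 2 CTR and 1 p63 remote regions. TSS were the 5′ ends of GENCODE 44 transcripts. Overlap meant at least 1 bp. Scripts used Python 3.11.15, pandas 2.3.3, scipy 1.17.1 and pysam 0.24.0, and were tested on simulated data.

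Members, gene lists and motifs were chosen with earlier results of these data known. Named regions were the 5 of highest −log10 q in each class, up to 10 with a p63 site of at most 1 mismatch, the 5 fullest blocks and the 3 with most p63-only regions, the 3 farthest regions per list and the 5 fullest noncoding genes. Sequences were read from GRCh38 and none from chromosome 8. The alternatives were the threshold, distance, TSS set, merging, overlap rule, list size, mismatches and window. The blood marker list and 1 further gene are not reported here.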

Additional observations from a re-analysis of the deposited data

How the results depend on the processing

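No paired analysis was possible because each deposited list pools both replicates, and settings that leave out or block replicates were not run. Of 84 values under 14 alternatives, 30 moved and 54 stayed. Staying meant within 1.5 times the count or within the 95% interval given in the report. Of the differences followed here only that in CTR-only share has an interval that excludes 0, and its sign never changed. The difference in p63-only share was 0.232 points at a threshold of 20, and that in p63 site share −1.19 points over all peaks. Both have the opposite sign to the values in the report. Merging changed nothing because the smallest gap between regions was 149 bp.

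The numbers of remote regions (CTR, p63) were 7386 and 7457 over all deposited peaks, 1622 and 1819 at a threshold of 20, 7015 and 7633 at over 100 kb, 989 and 989 at over 500 kb, and 6312 and 6667 with the 5′ end of each gene record as its only TSS. The CTR-only and p63-only shares were 30.1% and 30.5% over all peaks, 28.2% and 32.0% with an overlap of 50% of both peaks, 5.10% and 14.6% for regions absent from the other list, and 29.5% and 25.6% with equal numbers of peaks. At a threshold of 20 the p63-only share was 32.8%, at over 100 kb the CTR-only share was 23.2%, and at over 500 kb the p63-only share was 25.4%. The remote minus nearer difference in CTR-only share was 6.0 points over all peaks and 0.886 for absent regions. That in p63-only share was −3.93 points at over 500 kb, where nearer means within 500 kb. The p63 site share of p63-only remote regions was 9.93% over all peaks, 18.8% for absent regions, 5.60% and 21.9% with at most 2 and 4 mismatches, and 7.50% and 15.8% within 50 and 200 bp. The alternative without assembly-gap blocks was added after the data were seen.

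Precision is limited by 1 list per group: intervals cover counting error, not the spread between inductions, and clustered regions are not independent. With a lowest pileup of 15 reads, a region below the threshold may be open, and absence from a list was read only as no peak.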
